A study of Mus musculus with 6 samples.

Results

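The 9 genes described here encode secreted factors that are often named as the paracrine output of stromal cell therapy: Hgf, Fgf2, Fgf7, Kitl, Bdnf, Tnfaip6, Csf1, Lif and Il6. They were taken by symbol from a table of 19877 genes, and all 9 were listed there. The cells were mouse cells labelled ADSCs, which usually stands for adipose-derived stem cells, in a series on mesenchymal stem cell therapy after myocardial infarction. A knockdown group expressed a short hairpin against Ifit1 (3 libraries) and was set against a group with a scrambled hairpin (3 libraries). All 6 libraries have the genotype WT, and each of 3 batches held 1 library of each group. The labels used here do not give strain, age, the number of hairpins or whether the libraries came from separate cultures. The spread behind every p-value is therefore that between libraries and may be technical.

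Stromal cells are thought to act on injured heart tissue mainly through what they release. HGF signals through the receptor tyrosine kinase MET and protects epithelial, endothelial and muscle cells. FGF2 and FGF7 bind FGF receptors, FGF2 on many cell types and FGF7 mainly on the epithelial splice form of FGFR2. Kit ligand and CSF1 support KIT-positive progenitors and macrophages, and BDNF is a neurotrophin that acts on TrkB. LIF and IL-6 share the signalling receptor gp130 and activate STAT3. TSG-6, the product of Tnfaip6, is a hyaluronan-binding protein that dampens inflammation.

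Ifit1, which encodes an interferon-induced protein that binds foreign RNA, had 1.76, 1.48 and 1.51 FPKM in knockdown libraries and 4.90, 3.75 and 4.97 FPKM in scrambled libraries (log2 fold change -1.27 ± 0.11 SE, limma adjusted p = 5.71e-05). FPKM is the number of fragments per kilobase of transcript length, scaled to the size of the library. A knockdown library held 32213063 to 40190425 fragments and a scrambled library 37092713 to 40569646. Of 12 stromal markers 11 had a mean of at least 1 FPKM, and their sum was 3060 to 3080 FPKM in knockdown and 3240 to 3270 FPKM in scrambled libraries. The sums hide shifts within the list, of which 4 of 11 tested markers were called higher and 6 lower. Col1a1, a collagen chain, averaged 676 ± 77.6 and 1220 ± 98.4 FPKM in knockdown and scrambled libraries and Ly6a 19.6 ± 1.54 and 34.9 ± 2.53 FPKM, while Vim averaged 1830 ± 56.3 and 1490 ± 91.9 FPKM and Alcam 14.2 ± 0.175 and 9.71 ± 0.323 FPKM (SD, n = 3 each). Of 8 leukocyte markers, 2 reached a mean of 1 FPKM, with sums of 5.86 to 5.97 FPKM in knockdown and 4.53 to 5.61 FPKM in scrambled libraries, and Ptprc, which defines leukocytes, had 1 fragment in 1 knockdown library and was listed at 0 in all scrambled libraries. Endothelial markers summed to at most 0.0984 FPKM in knockdown and 0.104 FPKM in scrambled libraries, and mast cell markers to at most 0.0281 and 0.0514 FPKM. Epithelial and mesothelial markers summed to 97.0 to 97.3 FPKM in knockdown and 87.3 to 98.1 FPKM in scrambled libraries, and 2 of 7, Krt19 and Msln, reached a mean of 1 FPKM. These sums, too, hide opposite shifts. Krt19 was called higher (0.24 ± 0.04 SE, limma adjusted p = 0.000701) and Msln lower (-0.52 ± 0.14 SE, limma adjusted p = 0.0148). Msln was not called without the filter described below (limma adjusted p = 0.0756). Sums of Schwann and neural markers were 17.8 to 20.9 and 26.1 to 27.3 FPKM, almost all of it Tubb3, and those of adipocyte markers 3.66 to 4.86 and 4.42 to 5.43 FPKM. Whether other cells had a part in the results below was not tested.

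The 9 factors spanned a wide range of levels, in the same order in both groups. Csf1 was the highest, with a mean of 186 ± 6.14 FPKM in knockdown and 132 ± 4.08 FPKM in scrambled libraries (SD, n = 3 each), and made up 73.2% of the summed FPKM of the 9 genes in knockdown and 67.8% in scrambled libraries. Fgf7 followed, then Bdnf and Kitl, Fgf2, Lif, Hgf, Tnfaip6 and, close to 0, Il6. Neighbours in this order did not overlap between libraries, except Bdnf and Kitl in scrambled libraries, at 6.16 to 6.44 and 5.53 to 6.40 FPKM. The sum of the 9 genes was 249 to 260 FPKM in knockdown and 193 to 197 FPKM in scrambled libraries, and without Csf1 it was 66.9 to 69.6 and 60.5 to 64.7 FPKM.

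**Figure D1:**
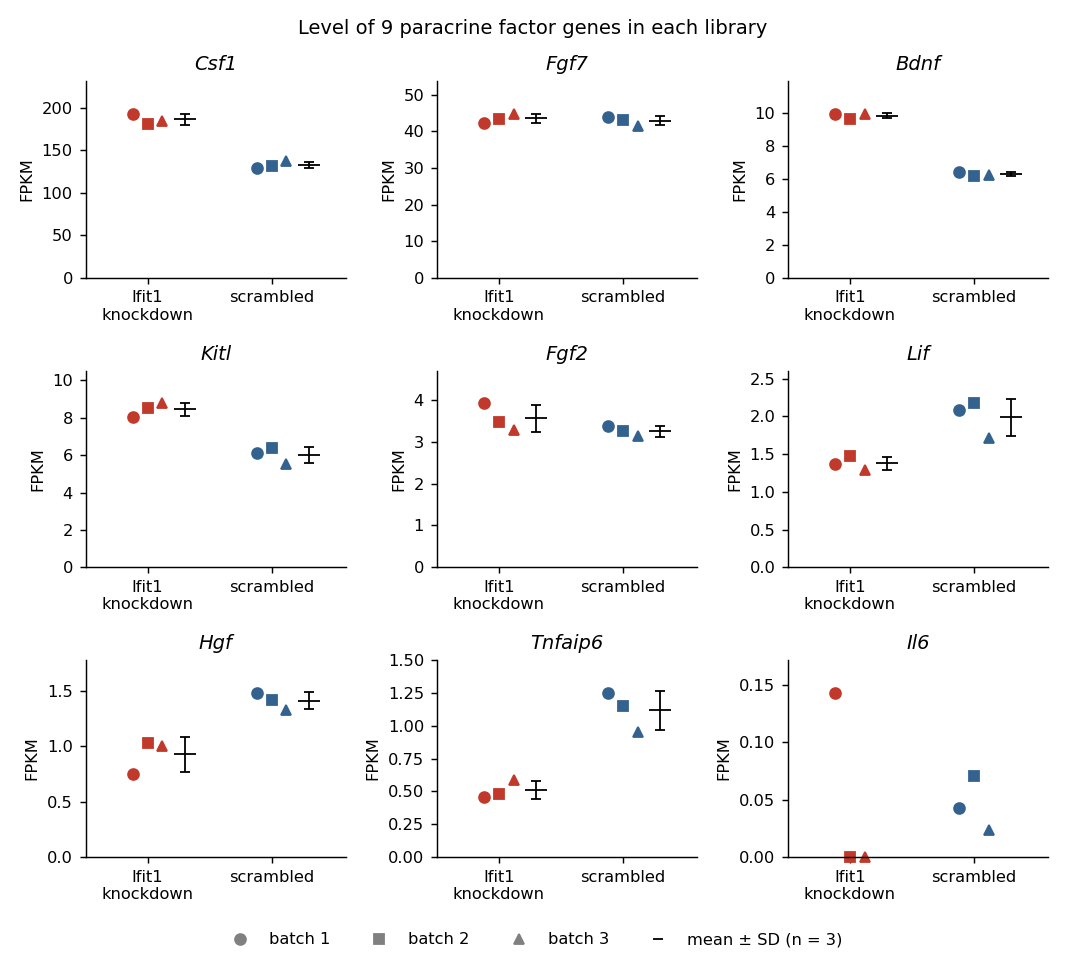
Level in FPKM (y axis, starting at 0 and scaled for each gene) of the 9 factor genes in each of 3 knockdown (red) and 3 scrambled (blue) libraries, with marker shapes for the batch and the mean ± SD except for Il6. Csf1, Bdnf and Kitl lie higher in all 3 knockdown libraries, Lif, Hgf and Tnfaip6 lie lower in all 3, and the groups overlap for Fgf7, Fgf2 and Il6.

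Different patterns were seen among the factors. Bdnf, Csf1 and Kitl rose in knockdown cells, Hgf and Lif fell, and Fgf2 and Fgf7 did not pass the test. Genes with at least 1 FPKM in at least 3 of 6 libraries were tested with limma on log2(FPKM + 0.5), which left 10311 genes, and 7 of the 9 factors passed this filter. A call is a Benjamini-Hochberg adjusted p under 0.05 over all 10311 genes. Of the 7, 3 were called higher (42.9%) and 2 lower (28.6%), where 19.8% of all tested genes were called higher and 31.1% lower. In either direction 5 of 7 were called, against 51.0% of all tested genes, so a call as such was common. The groups did not overlap for the same 5 of 7 genes, against 61.1% of all tested genes. Quantile normalization and cyclic loess, which remove differences between libraries that follow the expression level, gave 4 higher and 0 lower, as set out below for each gene. Of all 10311 tested genes, quantile normalization called 2486 higher and 2256 lower, and cyclic loess 2273 and 2480. In bulk RNA, fewer cells that express a gene and less RNA per cell cannot be told apart.

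Bdnf had the largest rise of the 7 tested factors. It encodes brain-derived neurotrophic factor (Entrez 12064; chromosome 2, positions 109674700 to 109727007 of GRCm38, plus strand). Its level was 9.95, 9.65 and 9.91 FPKM in knockdown libraries 1, 2 and 3 and 6.44, 6.16 and 6.26 FPKM in scrambled libraries 1, 2 and 3, from 2106 to 2699 and 1548 to 1770 fragments. The lowest knockdown library lay well above the highest scrambled library, and libraries of a group differed little. The mean was 1.56 times the scrambled mean (log2 fold change 0.61 ± 0.04 SE, limma adjusted p = 2.9e-05). The difference was nearly the same in every batch, at 0.59, 0.61 and 0.62 on the log2 scale. An antisense gene that is not among the listed genes overlaps Bdnf on the opposite strand. No source here states whether counting used strand, so reads of that overlap cannot be assigned.

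Csf1, the growth factor of macrophages and their precursors (Entrez 12977; chromosome 3, 107741048 to 107760469, minus strand), had 193, 181 and 185 FPKM in knockdown libraries and 129, 132 and 137 FPKM in scrambled libraries. All 3 knockdown libraries lay above all 3 scrambled libraries. The mean was 1.41 times the scrambled mean (log2 fold change 0.49 ± 0.03 SE, limma adjusted p = 2.71e-05), with 0.58, 0.45 and 0.44 within batches 1, 2 and 3. These values rest on 28329 to 36285 fragments in knockdown and 23792 to 25446 in scrambled libraries. Its receptor gene Csf1r stood at 0.0910, 0.0953 and 0.102 FPKM in knockdown and 0.214, 0.172 and 0.143 FPKM in scrambled libraries, far below the ligand.

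Kitl, the ligand of the receptor KIT, made as a membrane-bound and a soluble form (Entrez 17311; chromosome 10, 100015630 to 100100416, plus strand), had 8.06, 8.51 and 8.77 FPKM in knockdown libraries and 6.11, 6.40 and 5.53 FPKM in scrambled libraries. The groups did not overlap, and the mean was 1.41 times the scrambled mean (log2 fold change 0.46 ± 0.06 SE, limma adjusted p = 0.000438). The log2 difference was 0.37, 0.38 and 0.62 within batches 1, 2 and 3. A value per gene does not tell the 2 forms of the protein apart. Kit itself was listed at 0 in all 3 knockdown libraries and had 1 fragment in each scrambled library.

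The rises of Bdnf, Csf1 and Kitl can be set beside genes of similar level. Of 3177 tested genes with a mean of 3 to 10 FPKM, the class of Bdnf, Kitl and Fgf2, 10.9% were called higher and 36.8% lower, with a median log2 fold change of -0.09. Of 631 tested genes with at least 100 FPKM, the class of Csf1, 53.7% were called higher and 16.0% lower (median 0.09). The 3 calls held under all 19 alternatives run for these genes, where the log2 fold change was 0.57 to 0.69 for Bdnf, 0.41 to 0.56 for Csf1 and 0.41 to 0.56 for Kitl, with adjusted p of at most 0.00114, 0.00122 and 0.00502.

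**Figure D2:**
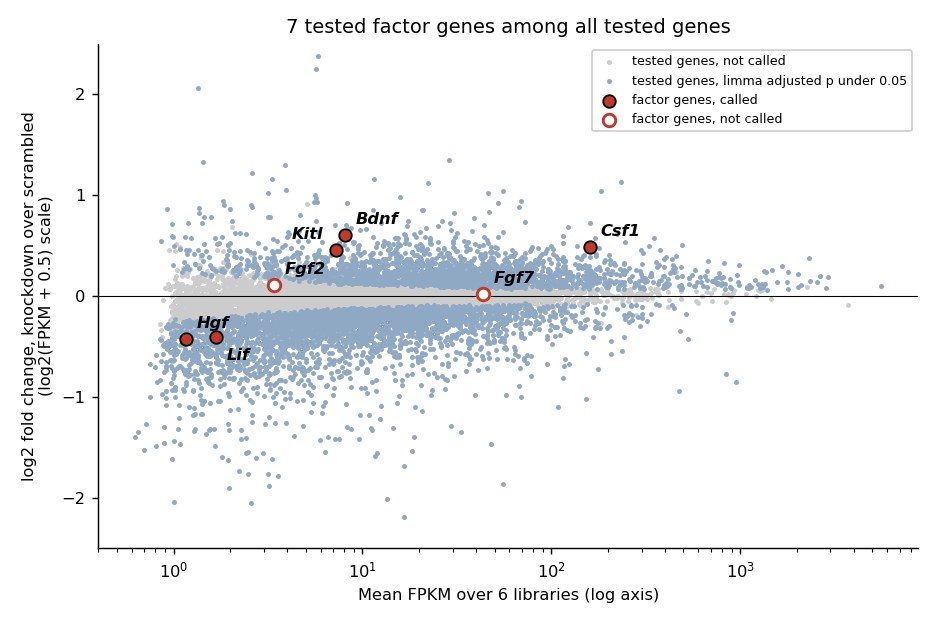
Log2 fold change of knockdown over scrambled libraries (y axis) against the mean FPKM over 6 libraries (x axis, log scale) for 10311 tested genes, blue where the limma adjusted p was under 0.05, with the 7 tested factors in red. Bdnf, Kitl and Csf1 lie above 0 at 0.61, 0.46 and 0.49, Hgf and Lif below 0 at -0.42 and -0.40 among genes of low level, where most called genes are lower.

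Hgf and Lif, both low in these cells, had lower levels in knockdown libraries. Hgf, hepatocyte growth factor (Entrez 15234; chromosome 5, 16553495 to 16620152, plus strand), had 0.747, 1.03 and 1.00 FPKM in knockdown libraries and 1.48, 1.42 and 1.33 FPKM in scrambled libraries, from 198 to 292 and 362 to 434 fragments. The groups did not overlap, and knockdown library 1 was the lowest. The scrambled mean was 1.52 times the knockdown mean, and on the log2(FPKM + 0.5) scale, which understates the change of low genes, Hgf fell by 0.42 (SE 0.10, limma adjusted p = 0.00876). Within batches 1, 2 and 3 the difference was -0.66, -0.32 and -0.28. Hgf met the filter through the scrambled libraries, with knockdown library 1 below 1 FPKM, and its limma adjusted p without the filter was 0.0305.

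Lif, leukemia inhibitory factor (Entrez 16878; chromosome 11, 4257557 to 4272514, plus strand), had 1.37, 1.47 and 1.29 FPKM in knockdown libraries and 2.08, 2.17 and 1.71 FPKM in scrambled libraries, from 266 to 292 and 363 to 474 fragments. All knockdown libraries lay below all scrambled libraries, of which the third was the lowest. The scrambled mean was 1.44 times the knockdown mean (log2 fold change -0.40 ± 0.09 SE, limma adjusted p = 0.00663), and the difference was -0.46, -0.44 and -0.31 within batches 1, 2 and 3.

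Genes of this level were lower in knockdown libraries as a class. Of 1677 tested genes with a mean of 1 to 3 FPKM, 37.3% were called lower and 6.32% higher, the median log2 fold change was -0.17, and the class took 0.858 times the share of fragments that it took in scrambled libraries. Quantile normalization put Hgf at -0.17 (limma adjusted p = 0.191) and Lif at -0.20 (limma adjusted p = 0.135), and cyclic loess put them at -0.19 (0.141) and -0.20 (0.122), so neither call held once the trend with level was removed. Both calls held when each library was left out in turn.

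Tnfaip6 was lower still, but it was below the filter, so the main test does not cover it. It encodes TSG-6 (Entrez 21930; chromosome 2, 52038009 to 52056686, plus strand). Its level was 0.457, 0.480 and 0.585 FPKM in knockdown libraries and 1.25, 1.15 and 0.954 FPKM in scrambled libraries, from only 27, 25 and 38 fragments and 82, 69 and 58 fragments. The groups did not overlap, and the scrambled mean was 2.20 times the knockdown mean. An exact permutation test on the log2 values gave the smallest two-sided p that 3 libraries against 3 allow, 0.1. A fit over all 19877 genes without the filter called 16.4% of genes lower and put Tnfaip6 at -0.68 (limma adjusted p = 0.00577). Batch by batch the difference was -0.87, -0.75 and -0.42. With the filter set to 0.5 FPKM, chosen after the data were seen, 49.7% of genes were called and 31.1% were called lower. Tnfaip6 met that filter through the scrambled libraries, in which it is high, with 2 knockdown libraries below it, so its values there (-0.68, and -0.46 with cyclic loess) are a description only. Genes with a mean of 0.5 to 1 FPKM took 0.802 times the scrambled share of fragments in knockdown libraries.

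Fgf7 and Fgf2 were not shown to change. Fgf7, keratinocyte growth factor (Entrez 14178; chromosome 2, 126034658 to 126091185, plus strand), had 42.3, 43.5 and 44.8 FPKM in knockdown libraries and 43.9, 43.2 and 41.6 FPKM in scrambled libraries. The groups overlapped, and the log2 fold change was 0.02 with a 95% interval of -0.06 to 0.10 (limma adjusted p = 0.631). Its sign turned in some settings and its size stayed under 0.1 in all of them.

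Fgf2, basic fibroblast growth factor (Entrez 14173; chromosome 3, 37348346 to 37410108, plus strand), had 3.92, 3.48 and 3.29 FPKM in knockdown libraries and 3.39, 3.25 and 3.13 FPKM in scrambled libraries. Knockdown library 3 lay within the scrambled range, and libraries 1 and 2 lay above it. The log2 fold change was 0.11 (95% interval -0.06 to 0.27, limma adjusted p = 0.236). It passed, higher, with quantile normalization (0.27, limma adjusted p = 0.0186) and with cyclic loess (0.25, limma adjusted p = 0.0282). The coding gene Nudt6 overlaps Fgf2 on the opposite strand and stood at 0.590 ± 0.151 FPKM in knockdown and 0.664 ± 0.196 FPKM in scrambled libraries (SD, n = 3 each). Since no source here states whether counting used strand, reads of the overlap cannot be assigned. The same holds for Fgf7, which a coding gene overlaps on the opposite strand. That gene averaged 0.0093 FPKM in knockdown and 0 FPKM in scrambled libraries.

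Il6 was almost absent from these libraries. It encodes interleukin-6 (Entrez 16193; chromosome 5, 30013114 to 30019981, plus strand). Its level was 0.143, 0 and 0 FPKM in knockdown libraries and 0.0428, 0.0703 and 0.0231 FPKM in scrambled libraries. These values rest on 6, 0 and 0 fragments in knockdown and 2, 3 and 1 fragments in scrambled libraries, so each group held 6 fragments in all. Knockdown library 1 alone held every knockdown fragment. A difference between the groups was not detectable at this depth (exact permutation test, two-sided p = 1).

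**Figure D3:**
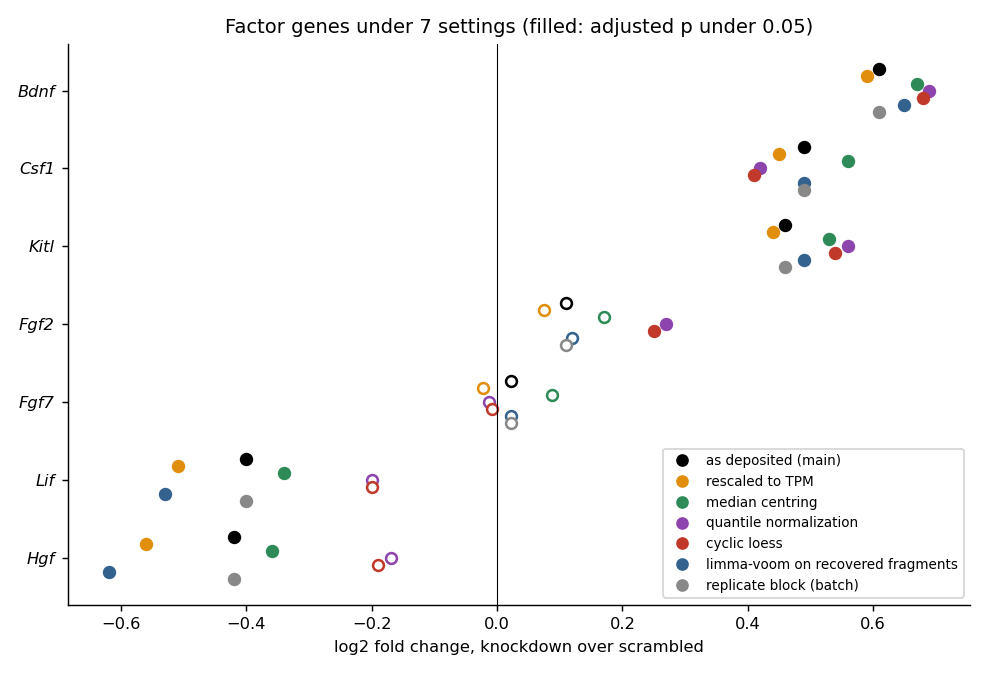
Log2 fold change of knockdown over scrambled libraries (x axis) for the 7 tested factors under 7 settings (colours), filled where the adjusted p was under 0.05. Bdnf, Csf1 and Kitl stay above 0 and filled in each, Lif and Hgf are open under quantile normalization and cyclic loess, and Fgf2 is filled under these 2 settings alone.

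The sequences around the start sites were read from RefSeq windows on GRCm38.p6 that run from 250 bases before to 50 bases after each start. All 9 genes had a window, and with 7 starts for Bdnf and 2 for Hgf there were 16 windows. Motifs were searched on both strands: GGG and CC with any 5 bases between them for NF-kB, TGANTCA for AP-1, TGACGTCA for CRE, a pair of GAAA with any 2 bases between them for the ISRE core, GGAATG for TEAD, TGATGNAA for C/EBP-ATF and CACGTG for the E-box of MYC. The NF-kB letters are loose and were in 8 of the 16 windows and in 50.8% of 32851 mouse windows, and overlapping matches on opposite strands were both counted. AP-1 was in 4 of 16 windows (25.0%; 7.81% of all), TEAD in 3 (18.8%; 14.7%), the ISRE core in 1 (6.25%; 3.44%) and C/EBP-ATF in 1 (6.25%; 3.97%). CRE and the E-box of MYC were in 0 of 16 windows, against 1.79% and 7.15% of all. The windows share genes, so they are no independent sample, and a match is no evidence of binding.

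The windows of the tested factors with the largest rise and the largest fall and of Il6 show what these matches look like, at the start with the most matches where a gene has several. They are written 5′ to 3′ on the strand of the gene, with every motif match in capitals. For Bdnf this start is the seventh, which lies beside its coding exon, and the values per gene do not tell which of its starts was used. The Bdnf window lies at chr2:109722671-109722970 (plus strand), the Hgf window at chr5:16553245-16553544 (plus strand) and the Il6 window at chr5:30012864-30013163 (plus strand).
Bdnf: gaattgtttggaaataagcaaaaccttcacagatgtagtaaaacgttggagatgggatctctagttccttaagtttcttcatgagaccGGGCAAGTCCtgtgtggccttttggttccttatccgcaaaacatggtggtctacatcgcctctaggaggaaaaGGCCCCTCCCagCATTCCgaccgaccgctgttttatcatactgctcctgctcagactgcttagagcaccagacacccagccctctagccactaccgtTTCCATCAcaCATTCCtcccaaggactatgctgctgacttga
Hgf: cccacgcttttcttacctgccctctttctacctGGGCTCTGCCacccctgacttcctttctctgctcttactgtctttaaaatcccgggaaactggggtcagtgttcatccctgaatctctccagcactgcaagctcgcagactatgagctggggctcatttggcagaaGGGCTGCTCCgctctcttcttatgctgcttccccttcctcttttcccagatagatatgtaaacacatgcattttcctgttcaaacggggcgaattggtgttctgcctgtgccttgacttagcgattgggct
Il6: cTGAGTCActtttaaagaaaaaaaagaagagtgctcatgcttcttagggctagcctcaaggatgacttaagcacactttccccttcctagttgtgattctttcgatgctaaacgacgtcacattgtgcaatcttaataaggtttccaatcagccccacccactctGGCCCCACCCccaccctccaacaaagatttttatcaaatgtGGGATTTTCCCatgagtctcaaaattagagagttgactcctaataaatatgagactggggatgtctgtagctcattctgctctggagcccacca
The Il6 window holds an AP-1 match at its far end and 3 NF-kB matches, of which 1 starts at position -85. GGGATTTTCC from position -44 is an NF-kB match that overlaps another match on the other strand. The Hgf window holds 2 NF-kB matches and no AP-1 match. The Bdnf window holds 2 NF-kB, 2 TEAD and 1 C/EBP-ATF match.

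The mRNAs of the 9 factors also shared a feature of their 3′ ends. The heptamer TATTTAT, the core of AU-rich elements that bind decay factors such as tristetraprolin, was searched on the sense strand of the longest 3′ untranslated region that GENCODE M21 gives for each gene. All 9 had at least 1 copy, where 30.9% of 9792 tested genes with a coding transcript did. Lif had 5 copies, Hgf 4, Kitl, Bdnf and Tnfaip6 3 each, Fgf2 2, and Fgf7, Csf1 and Il6 1 each, while 3.92% of the tested genes had 3 or more. The lengths of these regions ran from 715 bases for Tnfaip6 to 5311 for Fgf2, against a median of 1182 over the tested genes, and the shares were not adjusted for length. Since all 9 carried the heptamer, its presence cannot separate genes that rose (Bdnf, Kitl, Csf1) from genes that were lower (Lif, Hgf, Tnfaip6). Whether the number of copies goes with the direction was not tested.

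Receptors of the factors were mostly present at low to moderate level. Of 13 listed, 7 were tested, 1 was called higher, 2 lower and 4 not (median -0.11, against -0.05 over all tested genes). The shares over all tested genes were 19.8% higher and 31.1% lower, here and for each list below. Fgfr2, the receptor whose epithelial form binds FGF7, had 4.67, 4.71 and 5.48 FPKM in knockdown and 2.77, 3.04 and 3.54 FPKM in scrambled libraries (log2 fold change 0.60 ± 0.09 SE, limma adjusted p = 0.000887), without overlap. Il6st, which encodes gp130, had 28.5, 30.1 and 34.4 FPKM in knockdown and 37.6, 38.7 and 41.0 FPKM in scrambled libraries (-0.33 ± 0.06, limma adjusted p = 0.00293), also without overlap. Fgfr1 averaged 31.9 ± 0.749 and 34.4 ± 0.454 FPKM in knockdown and scrambled libraries (SD, n = 3 each; -0.11 ± 0.03, limma adjusted p = 0.0211). Its call did not hold under median centring or without knockdown library 1 (limma adjusted p = 0.0664), scrambled library 1 (0.0701) or scrambled library 2 (0.0653). These 3 settings without a library left 1 receptor called lower. Met, the HGF receptor, averaged 19.8 ± 0.430 and 18.7 ± 1.17 FPKM (0.08, limma adjusted p = 0.185), and passed, higher, under median centring and without scrambled library 2 (limma adjusted p = 0.0493), which raised the called higher to 2. Fgfrl1 (-0.05, limma adjusted p = 0.450), Lifr (-0.17, 0.143) and Il6ra (-0.17, 0.101) did not pass in the main test, and their signs turned under some scalings. After rescaling to TPM Il6ra passed, lower (limma adjusted p = 0.0489), which raised the called lower to 3.

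Below the filter, Fgfr3 averaged 0.756 ± 0.0160 FPKM in knockdown and 0.773 ± 0.0437 FPKM in scrambled libraries (SD, n = 3 each). Fgfr4 had 4, 2 and 1 fragments in knockdown libraries and was listed at 0 in scrambled libraries. Ngfr, the low-affinity neurotrophin receptor, had 1 fragment in all knockdown libraries together and 1 in all scrambled libraries together. Ntrk2, the gene of TrkB, was not analysed here.

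Genes that activate, cleave or bind the factors went both ways. Of 27 listed, 20 were tested, 4 were called higher, 7 lower and 9 not (median -0.05). Sort1, which encodes sortilin, a sorting receptor of pro-BDNF, had 0.476, 0.544 and 0.601 FPKM in knockdown and 1.27, 1.19 and 1.28 FPKM in scrambled libraries (-0.75 ± 0.09, limma adjusted p = 0.000316). Sort1 met the filter only through the scrambled libraries, so it had to differ to be tested; without the filter its limma adjusted p was 0.0021. Cd44, a hyaluronan receptor, averaged 117 ± 5.49 and 82.6 ± 6.72 FPKM in knockdown and scrambled libraries (SD, n = 3 each; 0.50 ± 0.06, limma adjusted p = 0.000243). Plat, tissue plasminogen activator, averaged 24.5 ± 1.93 and 33.4 ± 2.17 FPKM (-0.44 ± 0.06, limma adjusted p = 0.000717). The count of higher genes was 2 without knockdown library 1, 2 without knockdown library 2, 1 without scrambled library 1 and 1 without scrambled library 2. It was 7 under median centring, with 6 lower.

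Most related ligands of the same families were near 0. Of 23 listed, 5 were tested, 2 were called higher, 2 lower and 1 not (median -0.02). Clcf1, a cytokine of the IL-6 family, had 23.7, 21.0 and 19.7 FPKM in knockdown and 12.9, 13.7 and 12.7 FPKM in scrambled libraries (0.69 ± 0.06, limma adjusted p = 8.39e-05). Clcf1 thus moved opposite to Lif, of the same family, while Ctf1, another member of it, was called lower like Lif (-0.63 ± 0.18, limma adjusted p = 0.0175). Without the filter Ctf1 was not called (limma adjusted p = 0.0835). Flt3l, the ligand of FLT3, averaged 0.849 ± 0.156 and 1.63 ± 0.204 FPKM in knockdown and scrambled libraries (SD, n = 3 each; -0.66 ± 0.11, limma adjusted p = 0.00154). It met the filter through the scrambled libraries, with 2 knockdown libraries below 1 FPKM, and its limma adjusted p without the filter was 0.0116. The count of lower genes was 1 without scrambled library 1, without scrambled library 3, with quantile normalization and with cyclic loess. In each of these settings Flt3l kept its call and Ctf1 lost it. Lif, too, lost its call with quantile normalization and with cyclic loess.

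Genes known to be induced through STAT3, the pathway of LIF and IL-6, went both ways. Of 12 listed, 9 were tested, 2 were called higher, 5 lower and 2 not (median -0.29, against -0.05 over all tested genes). Over all tested genes, too, more were called lower (31.1%) than higher (19.8%), and the difference from them was not tested. Stat3 itself had 15.1, 16.1 and 16.0 FPKM in knockdown and 24.1, 23.7 and 25.6 FPKM in scrambled libraries (-0.62 ± 0.04, limma adjusted p = 2.61e-05). Bcl3, an atypical inhibitor of NF-kB, had 3.03, 3.43 and 3.93 FPKM in knockdown and 6.55, 6.04 and 5.89 FPKM in scrambled libraries (-0.75 ± 0.09, limma adjusted p = 0.000193). Myc, a growth regulator with many other inputs, rose to 84.5 ± 0.465 FPKM in knockdown libraries, against 71.0 ± 0.873 FPKM in scrambled libraries (SD, n = 3 each; 0.25 ± 0.03, limma adjusted p = 0.000134). The count of higher genes was 1 without knockdown library 1, knockdown library 3, scrambled library 2 or scrambled library 3, while the count of lower genes was 5 or 6 in each of these.

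Genes induced through ERK, downstream of receptor tyrosine kinases such as MET, FGF receptors and TrkB, also went both ways. Of 14 listed, 13 were tested, 6 were called higher, 2 lower and 5 not (median 0.11, against -0.05), where 19.8% of all tested genes were called higher and 31.1% lower, and the difference from them was not tested. Phlda1 averaged 90.8 ± 14.3 and 46.7 ± 2.82 FPKM in knockdown and scrambled libraries (0.94 ± 0.10, limma adjusted p = 0.000136), and Fosl1, an AP-1 subunit, 87.3 ± 5.99 and 47.1 ± 5.02 FPKM (0.89 ± 0.08, limma adjusted p = 6.32e-05; SD, n = 3 each). Spry2, a feedback inhibitor of the pathway, averaged 8.54 ± 0.383 and 6.16 ± 0.285 FPKM (0.44 ± 0.05, limma adjusted p = 0.00028). The 2 lower genes, named after their values were seen, were Egr1, an early response factor, at 56.8 ± 6.62 and 87.1 ± 6.89 FPKM in knockdown and scrambled libraries (-0.62 ± 0.08, limma adjusted p = 0.000495), and Spry1, a relative of Spry2, at 2.73 ± 0.46 and 4.52 ± 0.599 FPKM (-0.64 ± 0.12, limma adjusted p = 0.00229). The count of higher genes was 6 or 7 under every alternative run.

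**Figure D4:**
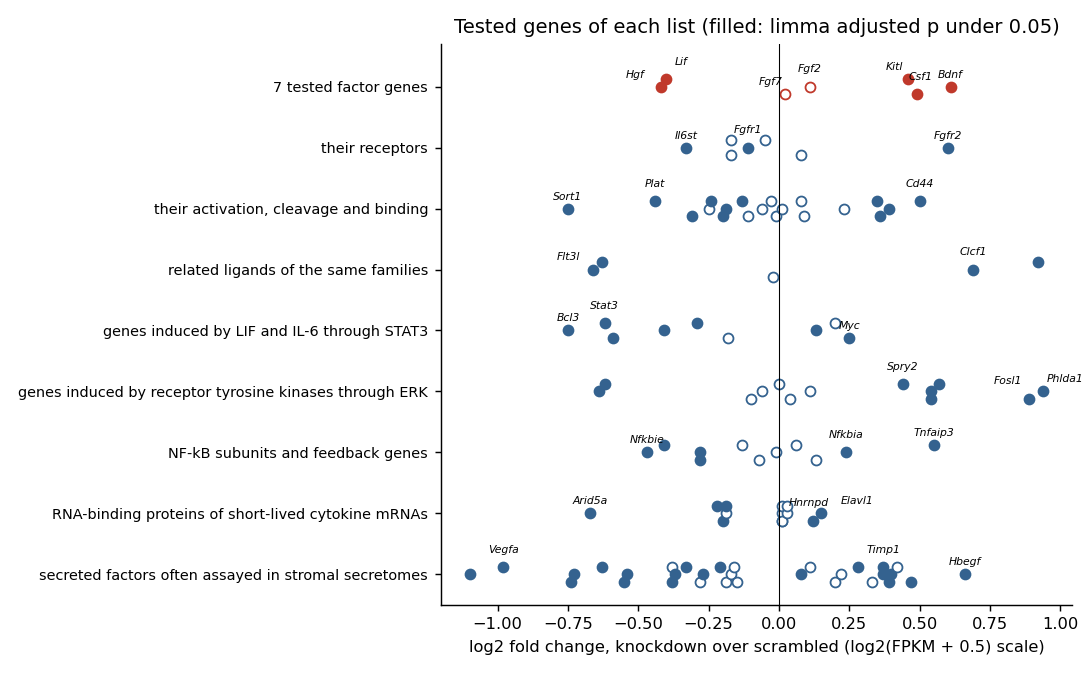
Log2 fold change of knockdown over scrambled libraries (x axis) of each tested gene in 9 lists (rows), filled where the limma adjusted p was under 0.05, with the 7 tested factors in red and up to 3 genes of smallest p in each other list named. The factors lie on both sides of 0, as do the genes of every other list.

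NF-kB and RNA decay genes, which set the levels of Il6, Lif, Csf1 and Tnfaip6 in other settings, went both ways. Of 12 NF-kB genes 11 were tested, 2 were called higher, 4 lower and 5 not (median -0.07). Tnfaip3, which encodes the feedback inhibitor A20, averaged 5.53 ± 0.521 and 3.61 ± 0.0496 FPKM in knockdown and scrambled libraries (SD, n = 3 each; 0.55 ± 0.07, limma adjusted p = 0.000324). Nfkbia, the inhibitor IkB-alpha, stood at 0.24 ± 0.06 (limma adjusted p = 0.0103) and Nfkbie at -0.47 ± 0.10 (0.0047). The count of lower genes was 2 without knockdown library 2 and 2 with quantile normalization.

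Of 13 genes of RNA-binding proteins that act on short-lived cytokine mRNAs, all 13 were tested, 2 were called higher, 4 lower and 7 not (median 0.01). Arid5a, which stabilises Il6 mRNA, had 1.28, 1.13 and 1.14 FPKM in knockdown and 2.01, 2.07 and 2.45 FPKM in scrambled libraries (-0.67 ± 0.09, limma adjusted p = 0.000456). Elavl1, which encodes the stabilising protein HuR, stood at 0.15 ± 0.04 (limma adjusted p = 0.0116). Hnrnpd, which encodes AUF1, stood at 0.12 ± 0.03 (limma adjusted p = 0.0152) and lost its call after rescaling to TPM, with quantile normalization, with cyclic loess and without knockdown library 1 or scrambled library 3. The counts higher and lower were 1 and 2 without knockdown library 1, 1 and 1 without scrambled library 3, 2 and 2 without scrambled library 2 and 2 and 1 under median centring.

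Other secreted factors often assayed in stromal secretomes were also split. Of 40 listed, 31 were tested, 8 were called higher, 12 lower and 11 not (median -0.17, against -0.05), and the counts were 10 and 8 with quantile normalization. Over all tested genes 19.8% were called higher and 31.1% lower, and the difference from them was not tested. Some of the lower genes met the filter only through the scrambled libraries, so they had to differ to be tested. Vegfa, the main angiogenic factor, had 26.1, 27.4 and 25.2 FPKM in knockdown and 52.9, 51.7 and 52.0 FPKM in scrambled libraries (-0.98 ± 0.04, limma adjusted p = 7.51e-06). Hbegf, a ligand of the EGF receptor, averaged 36.2 ± 4.43 and 22.7 ± 1.57 FPKM in knockdown and scrambled libraries (0.66 ± 0.08, limma adjusted p = 0.000346), and Timp1, an inhibitor of matrix metalloproteinases, 162 ± 11.3 and 125 ± 2.62 FPKM (0.37 ± 0.05, limma adjusted p = 0.000329; SD, n = 3 each).

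The genes whose profile over the 6 libraries was most like those of Bdnf and Hgf were found by the root mean square difference of log2 values, each centred on its own mean. For Bdnf they were Mir100hg, the host gene of a microRNA cluster (difference 0.030, 22.9 ± 0.598 FPKM in knockdown and 14.8 ± 0.271 FPKM in scrambled libraries), Tma16 (0.032) and Cobll1 (0.040). For Hgf they were Pcdhb22, a protocadherin gene (0.032), Eid2 (0.032) and Scly, selenocysteine lyase (0.033), all of them lower in knockdown libraries. The direction of the genes named for Bdnf and for Hgf follows from how they were chosen and is no separate result. Pcdhb22 met the filter only through the scrambled libraries. With quantile normalization Pcdhb22 and Scly lost their calls (limma adjusted p = 0.166 and 0.0536).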

How the data were processed

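Messenger RNA was captured on beads, fragmented by heat and sequenced from 6 libraries, per the labels' protocols. The authors deposited 1 table of FPKM per gene and library. The submitters' processing notes name GRCm38, mm10 and GRCm39 without a role, and no source here names the aligner, the counter or a strand setting. Fragments were recovered from the FPKM as the smallest whole numbers that fitted (19877 of 19877 genes, tolerance 0.002), so that counts sharing a factor in every library are understated. FPKM were changed to log2(FPKM + 0.5) and tested with limma 3.58.1 in R 4.3.3 (trend, two-sided, Benjamini-Hochberg over 10311 genes). Errors of log2 fold changes are standard errors. The test was checked on simulated data in which every gene had the same spread and changes did not depend on level. That check therefore does not cover the trend with level seen here. Gene positions came from GENCODE M21 (GRCm38) and start windows from RefSeq (GRCm38.p6).

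The 9 genes, the 8 other lists and the tests were chosen with earlier results of these data known. Named were the 9 genes, Ifit1, all receptors, up to 3 tested genes of smallest p per list, and the 3 nearest profiles to the tested genes of largest rise and fall. A gene that this rule names is not reported here. The overlapping gene Nudt6 was named after its values were seen, as were the markers Ptprc, Krt19, Msln, Tubb3, Col1a1, Ly6a, Vim and Alcam and the genes Egr1, Spry1 and Ctf1. Per the labels, libraries of 1 number share a batch, so the number pairs them. Their deviations from the group means correlated at 0.09, 0.01 and 0.19 over genes for batches 1, 2 and 3. For a knockdown and a scrambled library of different batches the correlation was -0.17 to 0.11, so batches 1 and 2 did not stand out. Alternatives were 2 pseudocounts, 3 filters, 4 scalings, a filter with a scaling, 2 variance models, a replicate block and leaving out each library.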

Additional observations from a re-analysis of the deposited data

How the results depend on the processing

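The calls of Bdnf, Csf1 and Kitl held in every alternative, and the counts of the 9 genes called higher and lower were 3 and 2 whichever library was left out. The counts were 4 and 0 with quantile normalization and with cyclic loess, 3 and 0 when only genes averaging 5 FPKM or more were tested, which removes Hgf, Lif and Fgf2 from the test, 3 and 3 without the filter and with the filter at 0.5 FPKM, and 4 and 1 with that filter and cyclic loess. In that last setting Hgf and Lif stood at -0.22 each and Fgf2 at 0.24, and the 1 lower gene was Tnfaip6. It was also the added lower gene without the filter and with the filter at 0.5 FPKM. Tnfaip6 met the filter of 0.5 FPKM through the scrambled libraries, in which it is high, so its calls with that filter are a description only. Under quantile normalization Hgf stood at -0.17, Lif at -0.20 and Fgf2 at 0.27, and with cyclic loess at -0.19, -0.20 and 0.25. Tnfaip6 stood at -0.68 without the filter, -0.68 with the filter at 0.5 FPKM and -0.46 with cyclic loess added. Fgf7 turned sign after rescaling to TPM (-0.023), with quantile normalization (-0.013), with cyclic loess (-0.0088) and with the filter at 0.5 FPKM and cyclic loess (-0.0084), and ran from -0.00038 to 0.042 when single libraries were left out.

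Among receptors, Fgfrl1 turned to 0.015 under median centring, 0.018 with quantile normalization, 0.0058 with cyclic loess and 0.0065 with the lower filter added. Lifr turned to 0.0061 and 0.0018 with quantile normalization and cyclic loess, and Il6ra to 0.0043 with quantile normalization. With batch as a replicate block, which pairs the libraries, Hgf (-0.42) and Lif (-0.40) kept their calls, and the block changed no call of the 7 tested genes. Tnfaip6 and Il6 were not fitted with the block. It moved the secretome list to 11 higher and 15 lower.

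Over all tested genes, 2046 were higher and 3209 lower, so that 38.9% of the called genes were higher, against 27.6% after rescaling to TPM (1540 and 4035), 56.7% under median centring (3001 and 2293) and 52.4% with quantile normalization (2486 and 2256). Testing only genes that averaged 5 FPKM or more gave 1850 and 2042. When single libraries were left out, 1676 to 1980 genes were higher and 2626 to 3304 lower. The settings that use the FPKM filter of 0.5 were chosen after seeing the data. Depth limits Il6 and Tnfaip6, which rest on at most 6 and 82 fragments per library. Only the FPKM filter of 0.5 and the fit without a filter cover Tnfaip6, and only the latter covers Il6.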
